A study of Mus musculus with 9 samples.

Results

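The Toll-like receptors (Tlr) Tlr1, Tlr2, Tlr3, Tlr4, Tlr6, Tlr7, Tlr9 and Tlr13, the co-receptor Cd14 and the adaptor Myd88 were followed in microglia, the macrophages that reside in brain tissue. The 10 genes were listed by name, and each was read at the probe set annotated to it alone. All 10 had a single such probe set and are 10 of 19938 genes measured this way, and all 10 were among the 10795 genes whose mean signal over all arrays was high enough to be tested. Gene expression was measured on 9 microarrays, 1 per mouse, as log2 values. All mice were 8.5 months old, carried the amyloid-forming 5XFAD transgenes, and were deficient in murine TREM2, a lipid-sensing receptor of microglia. The R47H group (3 mice) expressed human TREM2 with the R47H substitution, a risk allele for Alzheimer's disease. The CV group (3 mice) carried human TREM2 in its common variant, and the KO group (3 mice) expressed no human TREM2. In each group mouse 1 was female, while mice 2 and 3 were male. Sources used here do not name the promoter that drives human TREM2 or say how many founder lines were used, and no group of mice with their own TREM2 or without 5XFAD was analysed here.

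Toll-like receptors are membrane proteins of immune cells that bind conserved molecules of microbes and some molecules released by damaged tissue. Tlr1, Tlr2, Tlr4 and Tlr6 act at the cell surface and recognise lipids and lipoproteins, while Tlr3, Tlr7, Tlr9 and Tlr13 act in endosomes and recognise nucleic acids. Cd14 hands lipopolysaccharide and other ligands to the surface receptors, and Myd88 carries the signal of all of these receptors except Tlr3 to NF-kB, a family of transcription factors that induces cytokines. Tlr2, Tlr4 and Cd14 are also known as receptors through which microglia respond to fibrillar amyloid.

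Promoter sequence was read from RefSeq for the build GRCm38.p6, as the 250 bases before each annotated start, and 7 of the 10 genes (9 starts) matched. The genes not matched were Tlr4, Tlr7 and Cd14. The windows of Tlr2 and Tlr1 are shown because these receptors, which pair with each other, had the largest positive differences between CV and KO described below, and those of Tlr3 and Tlr9 because they had the largest negative ones. Capitals mark matches, on either strand, to the kB consensus that NF-kB binds, to the core GAGGAA bound by PU.1, the lineage factor of macrophages, to TGANTCA bound by AP-1, and to the core of the interferon-stimulated response element (ISRE), a pair of GAAA runs 2 bases apart.
Tlr2 (chr3:83841609-83841858, minus strand): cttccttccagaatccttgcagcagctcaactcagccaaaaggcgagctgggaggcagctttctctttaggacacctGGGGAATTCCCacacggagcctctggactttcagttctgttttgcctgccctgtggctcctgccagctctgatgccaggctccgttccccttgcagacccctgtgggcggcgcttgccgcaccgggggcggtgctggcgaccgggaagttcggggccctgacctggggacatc
Tlr1, first annotated start (chr5:64933559-64933808, minus strand): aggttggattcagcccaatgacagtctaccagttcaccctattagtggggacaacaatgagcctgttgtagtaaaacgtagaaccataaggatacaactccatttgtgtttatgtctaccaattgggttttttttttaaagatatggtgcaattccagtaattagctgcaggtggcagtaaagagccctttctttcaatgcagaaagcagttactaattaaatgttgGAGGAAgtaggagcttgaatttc
Tlr3 (chr8:45410381-45410630, minus strand): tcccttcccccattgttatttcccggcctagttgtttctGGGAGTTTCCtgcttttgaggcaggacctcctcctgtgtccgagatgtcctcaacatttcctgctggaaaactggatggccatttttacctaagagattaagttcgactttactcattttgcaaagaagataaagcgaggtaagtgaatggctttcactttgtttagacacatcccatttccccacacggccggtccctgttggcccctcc
Tlr9 (chr9:106222348-106222597, plus strand): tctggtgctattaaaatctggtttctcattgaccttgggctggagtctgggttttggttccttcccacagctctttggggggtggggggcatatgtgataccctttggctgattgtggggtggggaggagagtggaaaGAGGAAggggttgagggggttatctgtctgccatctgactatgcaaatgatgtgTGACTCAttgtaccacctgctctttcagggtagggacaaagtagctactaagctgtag
The Tlr2 window held 2 overlapping kB matches, which cover bases 173 to 163 before the start. The Tlr3 window held 1 kB match, at bases 211 to 202. A kB match was present in 3.9% of all 32851 windows of this length. The Tlr1 window held GAGGAA at bases 23 to 18, and the Tlr9 window held it at bases 112 to 107, as did 23.3% of all windows. Tlr9 also held TGACTCA at bases 58 to 52, a match to TGANTCA, which 6.75% of windows contained. The ISRE core, present in 2.98% of windows, was in none of these 4 windows, but the windows not shown held it in Tlr6 (a pair of overlapping matches at bases 116 to 101) and in Myd88 (bases 40 to 31). The matches describe letters in these windows and were not tested for binding. The second annotated start of Tlr1 had no match to any of the 4 motifs.

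The sort was checked against markers. All 7 microglial markers with a probe set of their own, P2ry12, Tmem119, Cx3cr1, Csf1r, Sall1, Siglech and Fcrls, were among the tested genes, with means over the 9 arrays of 10.40 (Sall1) to 12.33 (Cx3cr1). Their score was -0.02, 0.10 and 0.03 in R47H, -0.13, -0.08 and -0.14 in CV, and 0.05, 0.05 and 0.15 in KO, so the CV mice were the lowest. Of these 7 markers 0 were positive in CV minus KO (median -0.20), 7 were positive in R47H minus CV (median 0.16), and 0 were called in either. The part of this shift in the differences of the receptor genes was not tested. Other cells were represented as well, and 2 arrays stood apart. A score was computed for each marker list as the mean log2 deviation of its tested genes from their means over all arrays. The neutrophil score, from 11 of 15 markers, was -1.22, -0.70 and -0.12 in R47H, 0.73, 1.65 and 1.43 in CV, and -1.92, -1.46 and 1.61 in KO, so KO mouse 3 lay with the CV mice. The defining neutrophil genes Elane, Mpo, Ly6g and Cxcr2 were below the level required for testing. The monocyte score, from 6 of 9 markers, was -0.76 to -0.42 in R47H, 0.68 to 1.21 in CV, and -0.76 to 0.67 in KO, with KO mouse 3 the highest of its group. Oligodendrocyte markers (7 of 8) scored 0.55 to 0.92 in R47H, -0.67 to -0.33 in CV and -0.68 to 0.14 in KO. Astrocyte markers (4 of 7) scored 0.47 to 0.70 in R47H, -0.52 to -0.30 in CV and -0.43 to 0.11 in KO. The astrocyte genes Gfap, Aqp4 and Gja1 were below the level required for testing. In R47H minus CV 5 of the 7 oligodendrocyte, 1 of the 4 astrocyte and 1 of the 6 monocyte markers were called, beside 0.797% of all genes. In CV minus KO 1 of the 6 monocyte markers was called, beside 1.21%. In R47H minus KO 1 of the 7 oligodendrocyte markers was called, beside 0.0834%. The monocyte markers had medians of 1.13 in CV minus KO and -1.59 in R47H minus CV. Markers of border-associated macrophages (7 of 7) had medians of -0.29 and 0.25 in these 2 comparisons, with 1 called in each. R47H mouse 3 had an interferon score of 0.89, against 0.09 and -0.27 in R47H mice 1 and 2. Neutrophils and monocytes are known to express Tlr2, Tlr4 and Cd14, and in a sorted population a change in the number of such cells and a change in RNA per cell cannot be told apart.

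**Figure D1:**
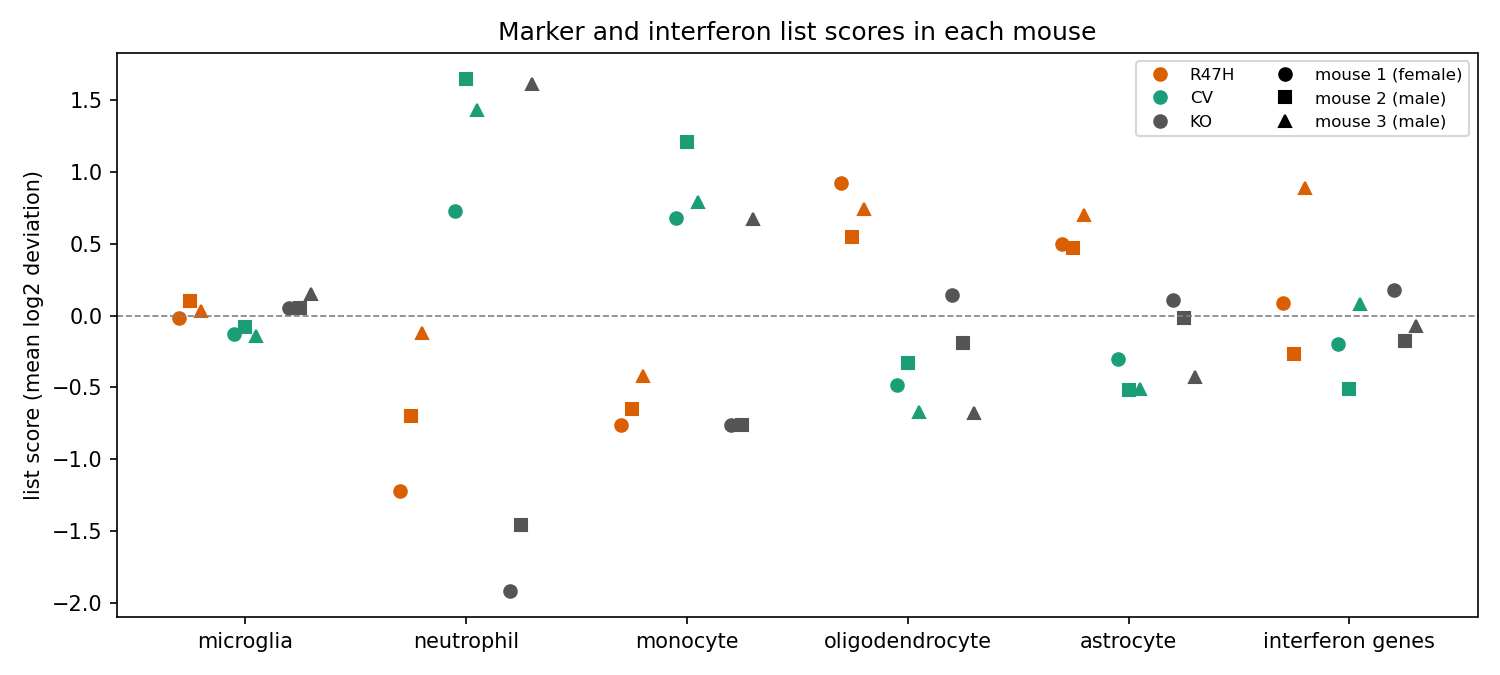
Score of each marker list and of the interferon genes (y axis, mean log2 deviation from the mean over all arrays) in each mouse, by genotype (R47H, CV, KO, left to right within a list) and mouse number (symbol). KO mouse 3, at 1.61, lies with the CV mice on the neutrophil list, and R47H mouse 3, at 0.89, is the highest mouse on the interferon list.

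Of the 10 genes 0 differed between genotypes at an adjusted p under 0.05 (limma, Benjamini-Hochberg over 10795 genes). In CV minus KO 0 of 10 were called, beside 1.21% of all genes tested (0.954% higher and 0.259% lower in CV). In R47H minus KO 0 of 10 were called, beside 0.0834% of all genes (0.0648% higher and 0.0185% lower). In R47H minus CV 0 of 10 were called, beside 0.797% (0.38% higher and 0.417% lower). At an unadjusted p under 0.05 there were 2 of 10 in CV minus KO (Tlr2 and Tlr1), where 13.2% of all genes reached it, and 0 of 10 in R47H minus KO (5.68%) and in R47H minus CV (12.4%). The median size of the difference, regardless of sign, was 0.13 over the 10 genes in CV minus KO, against 0.09 over all genes. It was 0.08 against 0.07 in R47H minus KO, and 0.06 against 0.09 in R47H minus CV. CV minus KO and R47H minus KO share the same 3 KO mice, and CV minus KO and R47H minus CV the same 3 CV mice. R47H minus KO and R47H minus CV share the 3 R47H mice, so the values of different comparisons are not independent of each other.

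The groups of CV and KO mice did not overlap for 5 of the 10 genes, Tlr1, Tlr2 and Cd14 being higher and Tlr9 and Myd88 lower in CV. Of all genes 14% did not overlap in that comparison, 5.9% higher and 8.05% lower. The R47H and KO groups did not overlap for Cd14 (higher) and Tlr9 (lower), where 7.11% of all genes did not overlap, 3.84% higher and 3.27% lower. The R47H and CV groups overlapped for all 10 genes, and did not for 14.9% of all genes, 8.74% higher and 6.17% lower. Several of these separations were narrow. The gap between the nearest mice of the 2 groups was 0.15 for Tlr1, 0.07 for Tlr2, 0.04 for Cd14, 0.03 for Myd88 and 0.01 for Tlr9 in CV against KO, and 0.01 for both Cd14 and Tlr9 in R47H against KO.

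**Figure D2:**
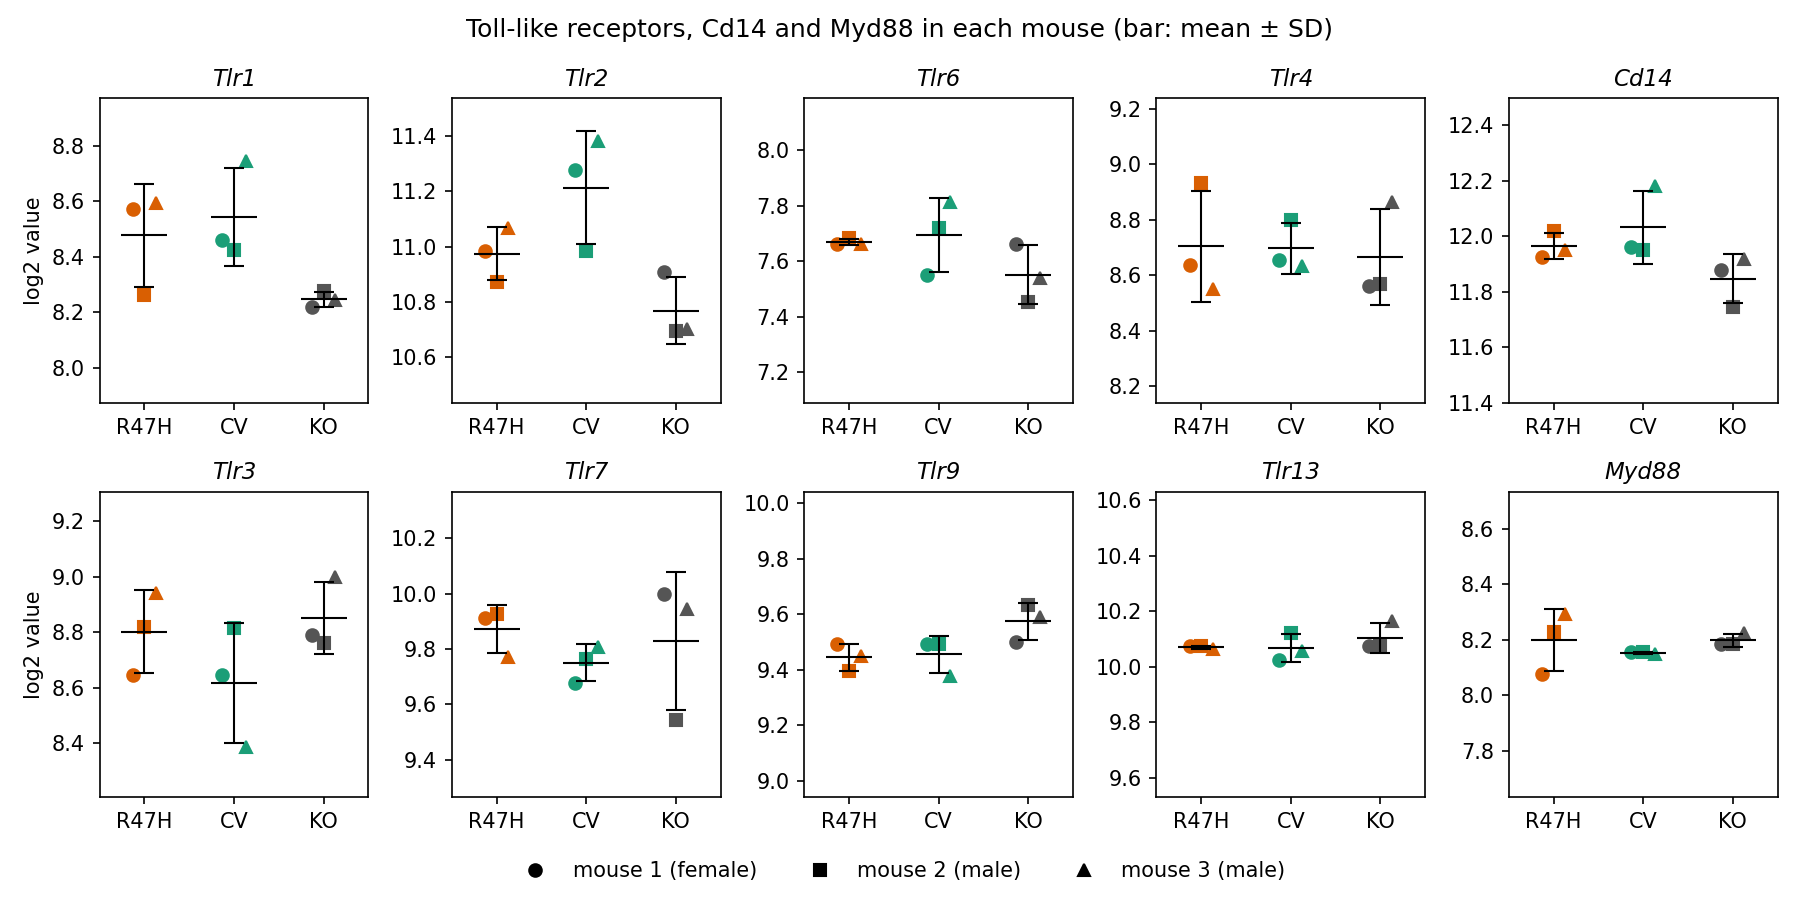
Log2 value (y axis, the same span of 1.1 in every panel) of each gene in each mouse, by genotype (R47H, CV, KO, left to right), with the mouse number as symbol and the bar at the mean ± SD of 3 mice. The Tlr2 values of the CV mice (10.98 to 11.38) all lie above those of the KO mice (10.69 to 10.91), and Tlr13 hardly varies (10.02 to 10.17 over all mice).

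Among the surface receptors Tlr2, which recognises bacterial lipoproteins as a pair with Tlr1 or Tlr6, had the largest difference of the 10 genes. Tlr2 (probe set 10498992) measured 10.98, 10.87 and 11.07 in R47H mice, 11.27, 10.98 and 11.38 in CV mice, and 10.91, 10.69 and 10.70 in KO mice. The CV mice were the highest group and the KO mice the lowest, and R47H mice lay between and overlapped both. CV microglia were 1.36-fold above KO microglia (log2 difference 0.44 ± 0.11 SE, 95% interval 0.20 to 0.69, limma adjusted p = 0.113). The gene ranked 278th of 10795 by p in that comparison. R47H microglia stood 0.21 ± 0.11 above KO (interval -0.04 to 0.45, adjusted p = 0.907) and at -0.24 ± 0.11 relative to CV (interval -0.49 to 0.01, adjusted p = 0.422). The neutrophil and monocyte scores were also higher in CV than in KO mice 1 and 2. Adding the neutrophil score to the model gave a Tlr2 difference between CV and KO of 0.46 ± 0.16 (adjusted p = 0.539), and leaving out KO mouse 3 gave 0.43 ± 0.13 (adjusted p = 0.183). R47H minus CV moved to -0.13 ± 0.10 without CV mouse 3, the highest mouse for this gene.

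Tlr1, the partner of Tlr2 for triacylated lipoproteins (probe set 10530145), measured 8.57, 8.26 and 8.60 in R47H mice, 8.46, 8.43 and 8.75 in CV mice, and 8.22, 8.28 and 8.24 in KO mice. The KO mice were close together (SD 0.03) and below every CV mouse, while R47H mouse 2 lay among them. The difference was 0.30 ± 0.12 for CV minus KO (1.23-fold, interval 0.03 to 0.56, limma adjusted p = 0.315). It was 0.23 ± 0.12 for R47H minus KO (interval -0.03 to 0.49, adjusted p = 0.907), and R47H and CV differed by -0.07 (interval -0.33 to 0.20). CV minus KO was 0.28 ± 0.17 with the neutrophil score as a covariate, and 0.19 ± 0.11 without CV mouse 3. R47H minus KO was 0.35 ± 0.10 without R47H mouse 2.

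Tlr6, which pairs with Tlr2 for diacylated lipoproteins and lies beside Tlr1 in the genome, had smaller differences. Its values (probe set 10530151) were 7.66 to 7.68 in R47H mice, 7.55 to 7.81 in CV mice and 7.45 to 7.66 in KO mice, so all groups overlapped. It stood at 0.14 ± 0.09 in CV minus KO (interval -0.06 to 0.34) and 0.12 ± 0.09 in R47H minus KO (interval -0.08 to 0.32), with adjusted p of 0.546 and 0.945, and R47H minus CV was -0.02 (interval -0.22 to 0.18). CV minus KO ran from 0.08 (without KO mouse 2 or CV mouse 3) through 0.23 (without KO mouse 1) to 0.24 (without CV mouse 1), and R47H minus KO was 0.06 without KO mouse 2 and 0.21 on leaving out KO mouse 1. Tlr1 and Tlr6 are close paralogs, and whether their probe sets cross-hybridise was not tested.

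Cd14, the co-receptor for lipopolysaccharide (probe set 10458382), measured 11.93, 12.02 and 11.95 in R47H mice, 11.96, 11.95 and 12.18 in CV mice, and 11.88, 11.75 and 11.92 in KO mice. The KO mice were the 3 lowest, by a narrow margin. The difference was 0.18 ± 0.09 in CV minus KO (1.14-fold, interval -0.01 to 0.38, adjusted p = 0.408) and 0.12 ± 0.09 in R47H minus KO (interval -0.08 to 0.31, adjusted p = 0.945). R47H minus CV was -0.07 (interval -0.26 to 0.13). In CV minus KO the value was 0.13 ± 0.12 with the neutrophil score as a covariate, 0.12 ± 0.09 if KO mouse 2 was left out, 0.21 ± 0.10 without KO mouse 3, and 0.11 ± 0.08 if CV mouse 3 was left out. R47H minus KO was 0.06 ± 0.09 without KO mouse 2 and 0.07 ± 0.08 with quantile normalization.

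Tlr4, the receptor that Cd14 serves for lipopolysaccharide, differed by 0.04 or less in every comparison. Its probe set, 10505517, measured 8.64, 8.93 and 8.55 in R47H mice, 8.66, 8.80 and 8.63 in CV mice, and 8.56, 8.57 and 8.87 in KO mice. All groups overlapped, and the spread within groups exceeded the differences between them. The interval was -0.23 to 0.31 for R47H minus KO, -0.23 to 0.30 for CV minus KO and -0.26 to 0.27 for R47H minus CV, so a 1.24-fold higher level in R47H than in KO microglia lay within the error. Over the surface receptors and Cd14, grouped after the values were seen, all 5 differences from KO were positive in CV and in R47H. The medians were 0.18 and 0.12. Tlr4 changed sign in 3 of 18 alternative settings in CV minus KO and in 2 in R47H minus KO. Pearson's r was 0.81 between Tlr1 and Tlr2 and 0.82 between Tlr6 and Cd14, and both comparisons share the KO mice, so these signs are not independent. For comparison 45% of all genes were positive in CV minus KO and 49.6% in R47H minus KO.

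**Figure D3:**
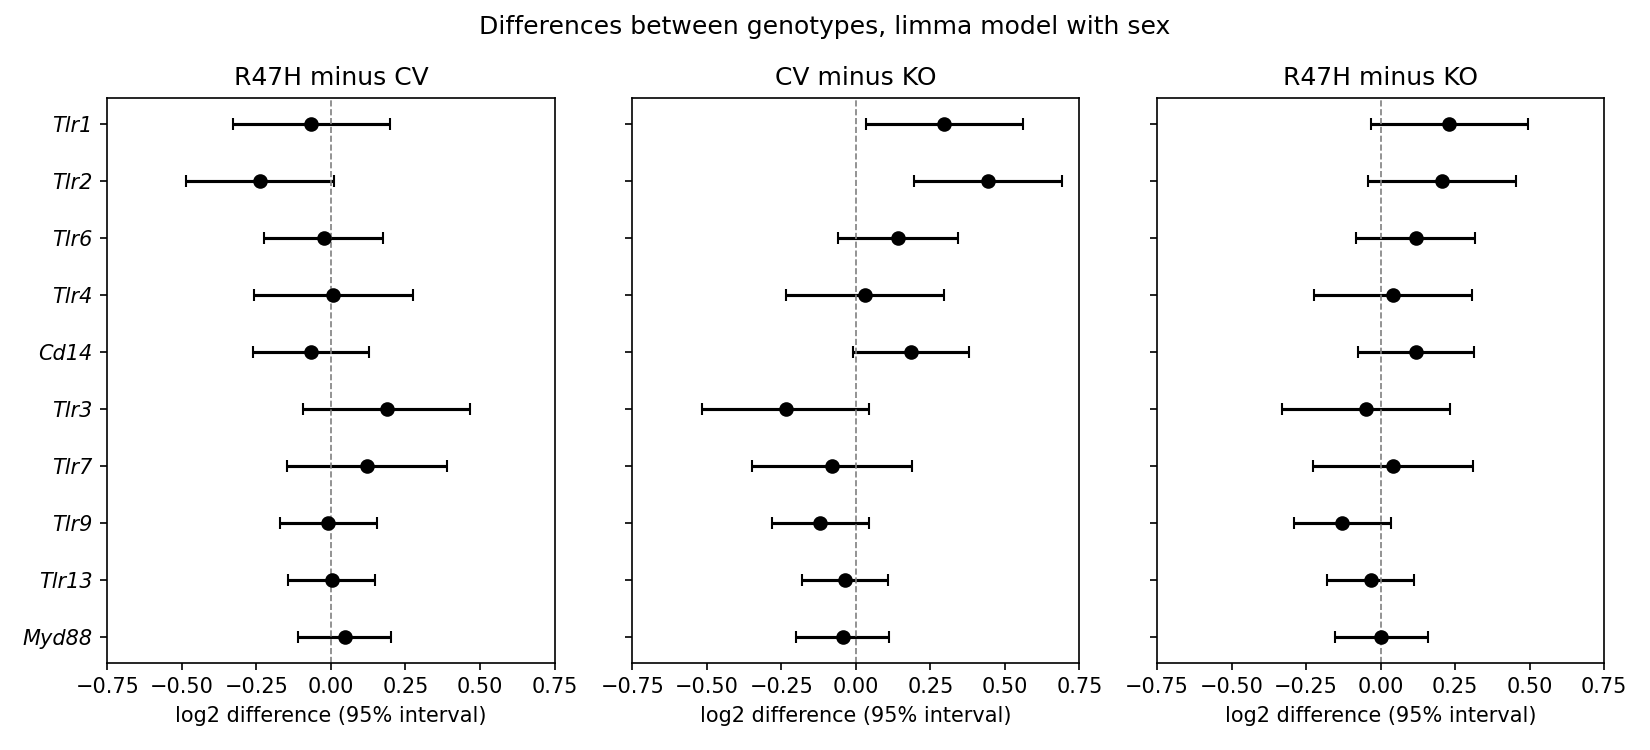
Log2 difference (x axis) of each gene in R47H minus CV, CV minus KO and R47H minus KO, with its 95% interval from limma. The intervals of Tlr2 (0.20 to 0.69) and Tlr1 (0.03 to 0.56) in CV minus KO lie above 0, and every other interval includes 0.

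The endosomal receptors, also grouped after the values were seen, had 4 of 4 differences negative in CV minus KO (median -0.10), and none passed the test. Of all genes 45% were positive in that comparison. Tlr7 changed sign there in 2 of 18 alternative settings. In R47H minus KO 1 of the 4 was higher and 3 were lower (median -0.04). Tlr3, a sensor of double-stranded RNA that signals through Ticam1 and not Myd88 (probe set 10578493), measured 8.65, 8.82 and 8.94 in R47H mice, 8.64, 8.82 and 8.39 in CV mice, and 8.79, 8.76 and 9.0004 in KO mice. CV mouse 3 was the lowest, and all groups overlapped. The difference was -0.24 ± 0.12 in CV minus KO (interval -0.52 to 0.04, limma adjusted p = 0.469), -0.05 ± 0.12 in R47H minus KO and 0.19 ± 0.12 in R47H minus CV (interval -0.09 to 0.47, adjusted p = 0.593). Tlr3 is known to be inducible by interferon. R47H mouse 3, the highest R47H mouse for Tlr3, had the highest interferon score (0.89), but other mice did not follow that order. KO mouse 3, the highest of all mice for Tlr3, had a score of -0.07. CV mouse 3, the lowest, had 0.08, the highest score of the CV mice. R47H mouse 1, the lowest of its group, had 0.09, above R47H mouse 2 at -0.27. Whether the score had a part in the Tlr3 values was not tested. In CV minus KO the value was -0.39 ± 0.16 with the neutrophil score as a covariate (adjusted p = 0.706), -0.17 ± 0.14 without KO mouse 3, and -0.09 ± 0.10 on leaving out CV mouse 3. R47H minus CV was 0.34 ± 0.17 with the neutrophil score and 0.04 ± 0.10 without CV mouse 3.

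Tlr9, which senses unmethylated CpG DNA, lay slightly lower in both groups with human TREM2, and neither difference passed the test. Its probe set, 10588479, measured 9.49, 9.40 and 9.45 in R47H mice, 9.49, 9.49 and 9.38 in CV mice, and 9.50, 9.63 and 9.59 in KO mice. The KO mice were the 3 highest. The difference was -0.13 ± 0.07 in R47H minus KO (interval -0.29 to 0.03, adjusted p = 0.907) and -0.12 ± 0.07 in CV minus KO (interval -0.28 to 0.04, adjusted p = 0.533), and R47H and CV differed by -0.01 (interval -0.17 to 0.15).

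Tlr7, a sensor of single-stranded RNA (probe set 10607870), measured 9.91, 9.93 and 9.77 in R47H mice, 9.68, 9.76 and 9.81 in CV mice, and 9.998, 9.54 and 9.95 in KO mice. KO mice 1 and 2 were the highest and the lowest of all 9. The difference was 0.04 ± 0.12 in R47H minus KO, -0.08 ± 0.12 in CV minus KO and 0.12 ± 0.12 in R47H minus CV (interval -0.15 to 0.39). The last was 0.27 ± 0.16 with the neutrophil score and 0.03 ± 0.13 without CV mouse 1. Tlr13, a receptor of mice, absent from humans, that recognises bacterial ribosomal RNA (probe set 10601385), had the smallest spread. All 9 values lay between 10.02 and 10.17, and the difference was -0.04 in CV minus KO (interval -0.18 to 0.11), -0.03 in R47H minus KO (interval -0.18 to 0.11) and 0.00 in R47H minus CV (interval -0.14 to 0.15).

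Myd88, the adaptor of all these receptors except Tlr3 (probe set 10597648), measured 8.08, 8.23 and 8.29 in R47H mice, 8.16, 8.15 and 8.15 in CV mice, and 8.18, 8.18 and 8.22 in KO mice. The CV mice lay just below all KO mice, and the R47H mice spanned both. The difference was -0.04 ± 0.07 in CV minus KO (interval -0.20 to 0.11), 0.00 ± 0.07 in R47H minus KO (interval -0.15 to 0.16) and 0.05 ± 0.07 in R47H minus CV (interval -0.11 to 0.20).

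Correlations between the genes across the 9 arrays are a description of 9 mice that share 3 genotypes. Pearson's r was 0.81 between Tlr1 and Tlr2, 0.75 between Tlr2 and Cd14 and 0.82 between Tlr6 and Cd14. It was -0.87 between Tlr9 and Cd14, -0.86 between Tlr6 and Tlr9 and -0.72 between Tlr2 and Tlr3. The tested genes most like Tlr2 over the 9 arrays were Psmb6, a proteasome subunit (r = 0.981), Cxcl16, a chemokine (r = 0.957), and Lmnb1, a nuclear lamin (r = 0.944). Those most like Tlr1 were the histone gene H1f5 (r = 0.963), the Mediator subunit gene Med11 (r = 0.938) and Nfxl1 (r = 0.934). Those most like Cd14 were the RNA-binding protein gene Ssb (r = 0.987), the hexokinase gene Hk3 (r = 0.974) and Mga (r = 0.971). None of these 9 genes was called in CV minus KO, with adjusted p from 0.101 (Cxcl16) to 0.672 (Ssb).

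The rest of the pathway was described through 6 lists of 85 other genes, 70 of them tested. In CV minus KO 1 of the 70 was called higher and 0 lower, beside 0.954% and 0.259% of all genes. There 53 of the 70 were positive at a median difference of 0.09, beside 45% positive and a median of -0.02 over all genes. In R47H minus KO 0 were called, beside 0.0834% of all genes, and the median was 0.02, beside 0.00 over all genes. In R47H minus CV 0 were called higher and 1 lower, beside 0.38% and 0.417% of all genes. There 51 were negative and 19 positive at a median of -0.09, beside 53.4% positive and a median of 0.01 over all genes. The called gene was in both cases Tnip1. CV minus KO and R47H minus CV share the same 3 CV mice, so their opposite signs are not independent of each other. Genes of a pathway can also vary together, so the 70 signs are not independent either. On the neutrophil and monocyte scores the CV mice lay above all R47H mice and KO mice 1 and 2. The part of these scores in the counts of signs was not tested.

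Tnip1, which binds ubiquitin and, with the enzyme Tnfaip3, restrains NF-kB signalling downstream of these receptors, measured 6.95, 6.83 and 6.74 in R47H mice, 7.32, 7.27 and 7.25 in CV mice, and 6.70, 6.78 and 6.72 in KO mice. The CV mice lay above all others, while R47H and KO mice overlapped. Tnip1 was 1.46-fold higher in CV than in KO microglia (0.55 ± 0.07, interval 0.39 to 0.71, limma adjusted p = 0.00759). It was lower in R47H than in CV microglia (-0.44 ± 0.07, adjusted p = 0.0346), and R47H minus KO was 0.11 ± 0.07 (adjusted p = 0.933), or 0.06 without R47H mouse 1 or KO mouse 1. The call against KO was lost without CV mouse 1 (adjusted p = 0.0527) and with the neutrophil score as a covariate (0.55 ± 0.10, adjusted p = 0.113). The call of R47H against CV was lost without any one of the R47H or CV mice, at differences of -0.49 to -0.40 and adjusted p of 0.111 to 0.169. It was also lost with the neutrophil score (-0.45 ± 0.11, adjusted p = 0.401), without the filter on low signal (adjusted p = 0.0559) and with the R47H and CV arrays alone (adjusted p = 0.0525).

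The other negative regulators had no call. Of all 11 tested, Tnip1 among them, 8 were positive in CV minus KO, at a median of 0.13. Sigirr, a receptor that damps Toll-like receptor signals, stood at -0.21 ± 0.08 in R47H minus KO (adjusted p = 0.82).

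Of 10 other receptors, co-receptors and chaperones tested, 0 were called in any comparison, and their medians were 0.05 in CV minus KO and 0.03 in R47H minus KO. Ly96, the MD-2 protein that binds lipopolysaccharide on Tlr4, stood at 0.32 ± 0.19 in R47H minus KO and 0.29 ± 0.19 in CV minus KO, where KO mouse 2 (7.25) lay below the other KO mice (7.78 and 7.91). Without KO mouse 2 these values were 0.09 and 0.07, and CV minus KO was 0.15 without CV mouse 2 and 0.03 with the neutrophil score. Slc15a3, like Slc15a4 an endolysosomal transporter, stood at 0.18 ± 0.09 in CV minus KO, and the 2 genes stood at -0.18 ± 0.09 and -0.14 ± 0.08 in R47H minus CV. Without CV mouse 3 Slc15a3 was at 0.10 in CV minus KO and -0.09 in R47H minus CV. Slc15a4 was at -0.08 without CV mouse 1 and -0.02 with the neutrophil score. The endoplasmic reticulum chaperone Hsp90b1, which folds most Toll-like receptors, stood at 0.09 ± 0.07 in R47H minus KO. Tlr8 and the lipopolysaccharide-binding protein Lbp did not reach the level for testing, and Tlr5 and Tlr11 had no probe set annotated to them alone.

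Of 18 adaptors and kinases 0 were called, with 10 positive in CV minus KO (median 0.02), 13 negative in R47H minus KO (median -0.04) and 12 negative in R47H minus CV (median -0.08). Irak2, of the kinase family that acts after Myd88, stood at 0.20 ± 0.08 in CV minus KO (adjusted p = 0.302) and -0.20 ± 0.08 in R47H minus CV (adjusted p = 0.344), and with the neutrophil score at 0.12 and -0.11. The kinase genes Ikbkb and Map3k8 stood at 0.20 ± 0.09 in CV minus KO and -0.23 ± 0.11 in R47H minus CV, and were at 0.31 with the neutrophil score (Ikbkb) and -0.11 without R47H mouse 1 (Map3k8). The ubiquitin enzymes Peli1 and Ube2n stood at -0.13 ± 0.08 and 0.26 ± 0.17 in R47H minus KO. Without R47H mouse 3 Peli1 was at -0.07. Ube2n rested on KO mouse 2 (7.69, against 8.40 in each of the other KO mice), and was at 0.01 ± 0.07 without it and at 0.41 and 0.40 without KO mice 1 and 3.

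Of 8 transcription factors 0 were called, with 7 positive in CV minus KO (median 0.12) and 7 negative in R47H minus CV (median -0.09). The NF-kB subunit genes Relb and Rel both stood at 0.33 in CV minus KO (SE 0.11 and 0.14, adjusted p = 0.247 and 0.337). In R47H minus CV they stood at -0.30 ± 0.11 and -0.32 ± 0.14 (adjusted p = 0.313 and 0.382). For both genes all CV mice lay above all R47H mice and above all KO mice. Of all genes 5.9% were higher without overlap in CV minus KO, and 6.17% were lower without overlap in R47H minus CV. Both genes were named for having the smallest p in their list, which favours such a separation. Relb was at 0.19 in CV minus KO and -0.17 in R47H minus CV without CV mouse 3. Rel was at 0.15 in CV minus KO without KO mouse 2, and at 0.15 in CV minus KO and -0.13 in R47H minus CV with the neutrophil score. Rela stood at 0.06 ± 0.07 in R47H minus KO, and Irf7, an interferon-induced factor, at 0.36 ± 0.32, which turned to -0.06 without R47H mouse 3 and was 0.77 without R47H mouse 2.

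Of 19 target genes of the pathway 0 were called in any comparison. The mouse number as a block was read only for the target genes named here, Cxcl16, Ptgs2, Il1rn and Ccl5. Of these Cxcl16 was called with it in CV minus KO. In CV minus KO 15 were positive (median 0.14), in R47H minus KO 13 (median 0.10), and in R47H minus CV 14 were negative (median -0.12). Cxcl16 measured 10.22, 9.80 and 10.25 in R47H mice, 10.39, 10.15 and 10.51 in CV mice, and 9.98, 9.62 and 9.72 in KO mice. The CV mice were above all KO mice, as for Tlr2 and for 5.9% of all genes. It stood at 0.58 ± 0.13 in CV minus KO (adjusted p = 0.101) and 0.32 ± 0.13 in R47H minus KO (adjusted p = 0.863). With the block CV minus KO was 0.58 (adjusted p = 0.0288), and without R47H mouse 3 R47H minus KO was 0.19. Ptgs2, the inducible prostaglandin synthase, stood at 0.62 ± 0.16 in CV minus KO (adjusted p = 0.124) and 0.51 ± 0.16 in R47H minus KO (adjusted p = 0.601), and was 0.31 in CV minus KO once the neutrophil score was in the model. Without KO mouse 2 Ptgs2 was at 0.41 in CV minus KO and 0.30 in R47H minus KO. The interleukin-1 antagonist Il1rn stood at -0.35 ± 0.13 and the chemokine Ccl5 at 0.96 ± 0.39 in R47H minus CV. Without R47H mouse 2 Il1rn was at -0.22 and Ccl5 at 1.5, which was called (adjusted p = 0.0446). Il1rn was at -0.20 with the neutrophil score, and Ccl5 at 0.55 without R47H mouse 3.

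Of the endogenous ligands 4 were tested and 0 called. S100a8 and S100a9, calprotectin subunits that can act on Tlr4 and are also 2 of the 15 neutrophil markers, differed most. S100a8 measured 9.22, 10.53 and 11.28 in R47H mice, 12.22, 12.79 and 12.83 in CV mice, and 7.84, 9.37 and 12.74 in KO mice. KO mouse 3 lay with the CV mice, as on the whole neutrophil list. The difference was 2.63 ± 0.80 in CV minus KO (adjusted p = 0.208), and -2.27 ± 0.80 in R47H minus CV (adjusted p = 0.301). S100a9 stood at 2.55 ± 0.81 and -2.39 ± 0.81. Without KO mouse 3 both were called in both comparisons, S100a8 at 3.80 in CV minus KO (adjusted p = 0.00128). With the neutrophil score, which these genes help to make, S100a8 and S100a9 were at 0.44 and 0.31 in CV minus KO and at 0.03 and -0.04 in R47H minus CV. Hmgb1 and Hspd1, the other tested ligands, stood at 0.10 (interval -0.21 to 0.40) and 0.07 (interval -0.08 to 0.21) in R47H minus KO, and Hmgb1 was at -0.12 without R47H mouse 1, -0.01 without KO mouse 1 and 0.20 without R47H mouse 3.

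Of 14 interferon genes tested 0 were called. All 14 were positive in R47H minus KO (median 0.27) and in R47H minus CV (median 0.41), beside 49.6% and 53.4% of all genes. In CV minus KO 13 were negative (median -0.18), where 45% of all genes were positive. Signs of genes that vary together are not independent. The interferon score was 0.09, -0.27 and 0.89 in R47H mice, -0.20, -0.51 and 0.08 in CV mice, and 0.18, -0.18 and -0.07 in KO mice. R47H mouse 2 thus lay below every KO mouse, and R47H mouse 3 was the highest of all. Ifit2 and Oasl2 stood at 0.62 ± 0.31 and 0.42 ± 0.31 in R47H minus KO and at 0.92 ± 0.31 and 0.73 ± 0.31 in R47H minus CV, and without R47H mouse 3 at 0.23 and 0.01 against KO and at 0.54 and 0.32 against CV. Oasl2 was at 0.72 against KO without R47H mouse 2. In CV minus KO Ifit3 and Rtp4 stood at -0.42 ± 0.33 and -0.35 ± 0.28, and without KO mouse 1 at -0.25 and -0.12. Ifit3 was at -0.24 without CV mouse 2.

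**Figure D4:**
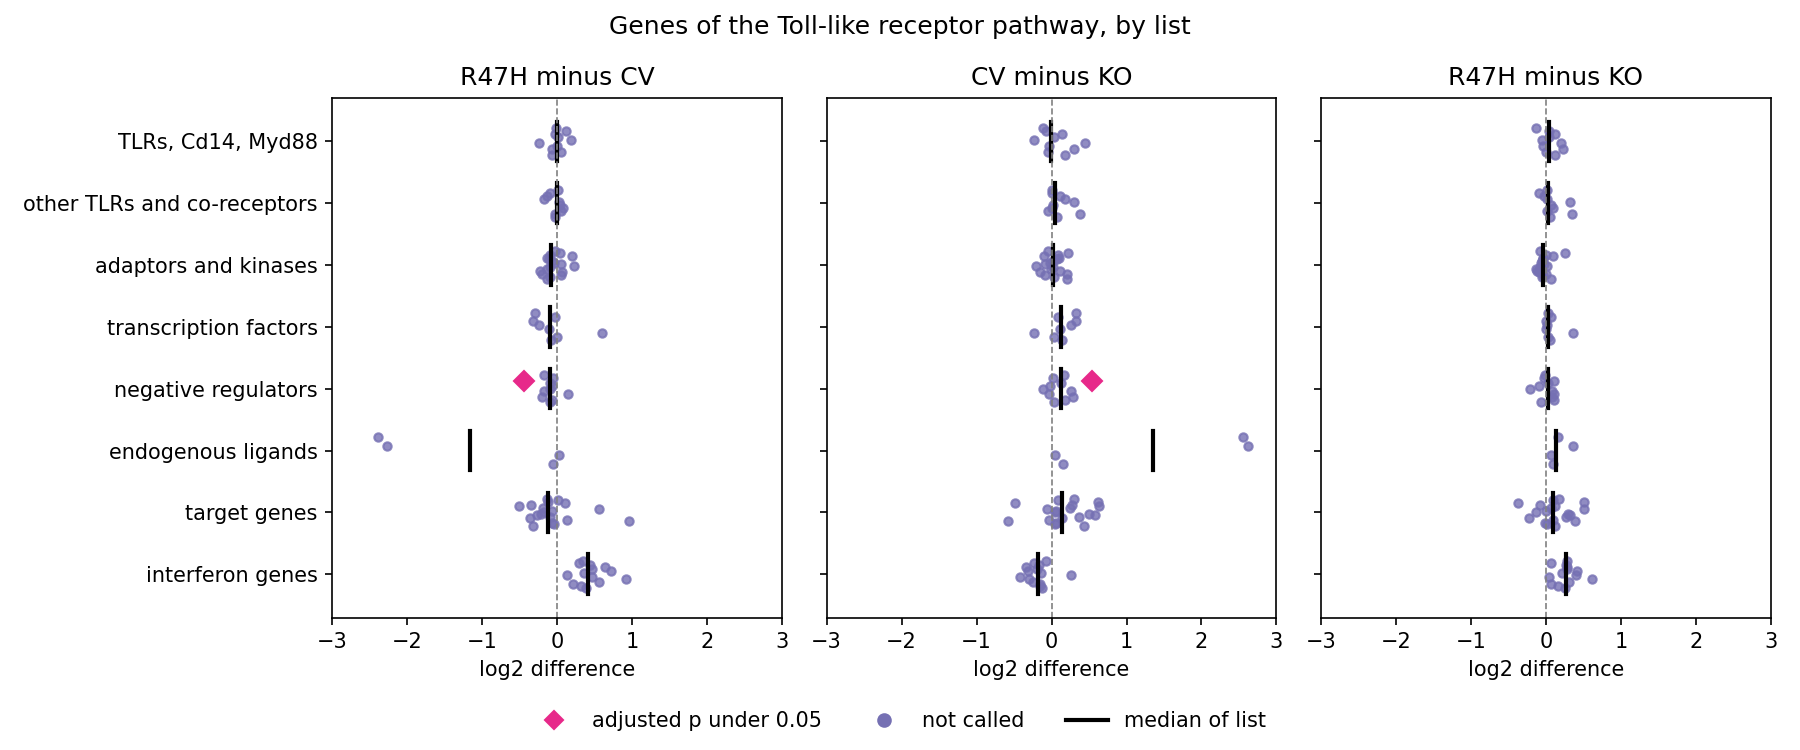
Log2 difference (x axis) of each tested gene in R47H minus CV, CV minus KO and R47H minus KO, by list, with the list's median as a bar and genes at a limma adjusted p under 0.05 as diamonds. Tnip1 is the single called gene, at 0.55 in CV minus KO and -0.44 in R47H minus CV, and the 2 outlying ligands are S100a8 and S100a9.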

How the data were processed

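The authors deposited log2 values for 35556 probe sets on each array, with the log2 scale read from the values themselves (1.31 to 13.89, array medians 5.28 to 5.35). How the authors corrected background, normalized and summarized probes is not stated in sources used here. Per the labels' protocols, sorted cells were lysed directly and biotin-labelled material was made from 2 ng of total RNA. Gene symbols came from the platform's annotation, and only probe sets with a single symbol were used. Where a gene had several, the one with the highest mean stood for it, and genes with a mean of at least 5.31, the median over probe sets, were tested.

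All 9 arrays entered 1 limma model (version 3.58.1, R 4.3.3, lmFit and eBayes) with terms for genotype and sex, after a test on simulated data. There were 5 residual and 3.73 prior degrees of freedom. Tests were two-sided, and calls used adjusted p under 0.05 (Benjamini-Hochberg over 10795 genes, each comparison apart). Errors are SE from the model, intervals are 95%, and the number of arrays limits the precision. The smallest p a permutation test of 3 against 3 can give is 0.10. Mouse numbers were checked as pairs through the correlation of deviations from group means. For mice 1, 2 and 3 it was 0.33, 0.20 and 0.20 between R47H and CV, 0.32, -0.04 and 0.21 between CV and KO, and 0.36, 0.00 and 0.15 between R47H and KO. Every pair was over 0.1 for R47H and CV alone, same-numbered mice share sex in all groups, and the block was fitted over all 9 arrays as an alternative.

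Named were all 10 genes, the called genes of each list or else the 2 with the smallest p in each comparison, and the 3 genes most correlated with each of the 3 members with the smallest F-test p. Genes, lists and tests were chosen with earlier results of these data known. The grouping into surface and endosomal receptors, and the choice of promoters shown, were made after the values were seen.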

Additional observations from a re-analysis of the deposited data

How the results depend on the processing

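Under 9 other settings and the removal of each of the 9 arrays in turn, none of the 10 genes was called in any comparison by limma. The smallest adjusted p was that of Tlr2 in CV minus KO under the replicate block (0.0671), and over all these settings it ran from 0.0671 to 0.539 at differences of 0.33 to 0.55. Tlr2, Tlr1, Cd14 and Tlr6 stayed positive against KO throughout in both CV and R47H, and Tlr9 and Tlr13 negative. Tlr13 did so at differences as small as -0.01. Several other differences near 0 changed sign, and the cause was not tested. With the neutrophil score as a covariate Tlr4 was at -0.10 in CV minus KO and Tlr9 at 0.01 in R47H minus CV. S100a8, 1 of the markers that make the score, was then at 0.03 in R47H minus CV, against -2.27 without the covariate. With quantile normalization Tlr13 was at -0.01 in R47H minus CV and Myd88 at 0.00 in R47H minus KO.

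Over the single removals R47H minus CV ran from -0.14 to 0.05 for Tlr1, -0.10 to 0.11 for Tlr4, -0.12 to 0.04 for Tlr6, -0.05 to 0.02 for Tlr9, -0.02 to 0.03 for Tlr13 and -0.12 to 0.01 for Cd14. R47H minus KO ran from -0.12 to 0.02 for Tlr3, -0.06 to 0.14 for Tlr4, -0.10 to 0.13 for Tlr7, -0.04 to 0.06 for Myd88, -0.06 to 0.77 for Irf7 and -0.12 to 0.20 for Hmgb1. CV minus KO ran from -0.04 to 0.12 for Tlr4 and -0.22 to 0.01 for Tlr7.

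Over all genes limma called 131 in CV minus KO, 9 in R47H minus KO and 86 in R47H minus CV. The counts were 77 and 3 in the first 2 without the sex term, 54 and 1 with the compared groups alone, and 23, 15 and 9 in the 3 comparisons with the neutrophil score. R47H minus KO gave 15 with trend and robust options, and R47H minus CV gave 48 without the filter, where more genes are tested. S100a8 and S100a9 were called in R47H minus CV with those groups alone (adjusted p = 0.0356 and 0.0442), and Ccl5 without R47H mouse 2 (adjusted p = 0.0446). Single removals gave 59 (without CV mouse 1) to 172 (without KO mouse 3) in CV minus KO, also 74 and 75 without KO mice 1 and 2 and 70 and 67 without CV mice 2 and 3. They gave 0 to 7 in R47H minus KO, with 1, 5 and 2 without KO mice 1, 2 and 3, 1, 3 and 0 without R47H mice 1, 2 and 3, and 5 without CV mouse 3. The 0 stood beside 534 genes at an unadjusted p under 0.05. They gave 9 to 132 in R47H minus CV, with 132 without KO mouse 3, 9, 37 and 24 without R47H mice 1, 2 and 3, and 15, 23 and 9 without CV mice 1, 2 and 3.

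With the mouse number as a replicate block limma called 136, 11 and 83 genes. Of the named genes the block changed only the call of Cxcl16 in CV minus KO (0.58, adjusted p = 0.0288). Every mouse correlated best with its own number between R47H and CV (6 of 6), and 3 of 6 did so in each of the other pairs of groups.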

Other observations

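Between the sexes none of the 10 genes was called in the same limma model (3 females and 6 males, 7 genes called in all). The X-linked receptor genes Tlr7 and Tlr13 stood at 0.07 ± 0.10 and -0.04 ± 0.06 in female minus male, with means of 9.86 and 10.06 in females and 9.79 and 10.09 in males. The largest differences in size were 0.11 ± 0.09 for Tlr2 (adjusted p = 0.741) and -0.11 ± 0.10 for Tlr4 (adjusted p = 0.758). Sex coincides with mouse number in every genotype.

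Exactly equal deposited values recurred across arrays. Tlr13 had the value 10.07 on 4 arrays (R47H mice 1 and 2, KO mice 1 and 2), Tlr9 had 9.49 on 3 arrays (R47H mouse 1, CV mice 1 and 2) and Tlr6 had 7.66 on 3 arrays (R47H mice 1 and 3, KO mouse 1). Cd14 and Myd88 each had a value shared by 2 arrays. Of all 10795 genes tested 52.5% had a value shared by at least 2 of the 9 arrays, 27.6% by at least 3 and 12.2% by at least 4, against 5, 3 and 1 of the 10 genes described here. The within-group SD of Tlr6 (0.01) and Tlr13 (0.01) in R47H mice, and the narrow gap of Tlr9 between R47H and KO, include such values.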
